A study of Homo sapiens with 118 samples.

Results

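Scriptaid and vorinostat at their highest concentrations were compared directly in HepaRG cells. The comparison rests on 6 of the 118 libraries of the series, which are the 3 libraries of the scriptaid group C5 and the 3 of the vorinostat group C5. They were chosen by their group labels alone. The 6 libraries of the lowest concentrations (C1) of the same chemicals gave the starting level of each, and the 18 libraries of the steps between (C2 to C4) entered the fit, which therefore held 30 libraries. The question was how far the cells differed between exposures to a pair of inhibitors that share a zinc-binding group.

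Histone deacetylases remove acetyl groups from lysines of histones and other proteins, and most of them hold a zinc ion in the active site. Hydroxamic acids bind that zinc ion, which raises histone acetylation and moves the transcription of many genes in both directions. Scriptaid and vorinostat (SAHA) are both hydroxamic acids with a linear alkyl linker. They differ in the cap at the other end of the linker, a naphthalimide in scriptaid and an anilide in vorinostat.

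HepaRG is an established human liver cell line that differentiates into hepatocyte-like and biliary-like cells. Differentiated cryopreserved cells had been in culture for 7 days, and the chemical was then renewed daily over 72 h before lysis. Scriptaid C5 was 94.5 µM and its C1 4.94 µM, whereas vorinostat C5 was 23.5 µM and its C1 0.404778 µM. The concentrations were not matched, so each test compares 2 exposures and not 2 molecules at an equal dose. Replicates 1, 2 and 3 came, per the labels, from the HepaRG batches B326, B330 and B303, and all libraries of both chemicals carried the plate mark E. Solvent controls were not used here, so a change that C1 had already brought about is hidden. All replicates are of a single cell line, so p-values measure the spread between its batches.

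Expression was measured with TempO-Seq. In this assay neighbouring probes anneal to an RNA in the lysate, are joined by a ligase, and are then amplified and sequenced. A row of the table is a probe, called a feature here, and some genes have several. Levels are given as CPM, the count scaled to a common library size after TMM normalization. Totals lay between 1785844 and 3123879 counts in scriptaid C5 and between 1061359 and 1879287 in vorinostat C5, so the vorinostat side was sequenced less deeply. A feature was called when the edgeR quasi-likelihood test gave an adjusted p under 0.05 and the fold was at least 1.5. A group with at most 3 counts of a feature in every library was taken as lying at the floor, and a fold against it is given only as a bound. Among the libraries of C2 to C4, scriptaid C4 replicate 3 stood apart (mean correlation with its group 0.807, features with at least 5 counts 10223), and it matters to the number of calls below.

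The labels call the cells liver progenitor cells, while the culture protocol calls them differentiated. Hepatocyte markers were high at C1, where the summed level of the 33 probes of the list lay between 38437.6 and 48888.1 CPM over the 6 libraries. At C5 it lay between 5872.34 and 8744.31 CPM with scriptaid and between 3820.45 and 7243.79 CPM with vorinostat. Of markers of other cells, PTPRC, LYVE1, CDH5, THY1, EPCAM and CFTR were at 0 counts in all 12 C1 and C5 libraries. The summed level of 11 stromal features lay between 179.659 and 213.265 CPM in scriptaid C5 and between 154.703 and 198.448 CPM in vorinostat C5, that of 9 biliary and progenitor features between 118.554 and 179.857 and between 103.306 and 120.518 CPM, and that of 3 blood and endothelial features between 20.5943 and 45.437 and between 19.318 and 43.6868 CPM. In lysates of whole wells, fewer cells of a type and less RNA per cell cannot be told apart.

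Each chemical moved a large share of the features between its lowest and highest concentration. Of 13187 features tested, 4756 (36.1%) were called with scriptaid, 2112 rising (16.0%) and 2644 falling (20.1%), and 5071 (38.5%) with vorinostat, 2263 rising (17.2%) and 2808 falling (21.3%). Both lists shared 3444 features in the same direction (1474 rose and 1970 fell), which is 72.4% of the scriptaid calls and 67.9% of the vorinostat calls. Only 11 features were called in opposite directions. Across the 13187 features, which share plate and cell batches, the responses correlated with Pearson's r = 0.778, and within batches 1, 2 and 3 with 0.670, 0.704 and 0.675.

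Set directly against each other, the C5 groups differed in 470 features (3.56%), of which 307 (2.33%) were higher with scriptaid and 163 (1.24%) lower. The scriptaid library lay on the same side in all 3 batches for 459 of the 470. For 443 the 3 scriptaid values did not overlap the 3 vorinostat values, where over all features 11.3% had all 3 scriptaid libraries above and 10.7% all 3 below. The 470 were called from these same C5 libraries, which favours both counts, so they are descriptive only. The responses themselves, C5 less C1 of one chemical against that of the other, differed in 118 features (0.895%), 82 with the scriptaid side higher (0.622%) and 36 with it lower (0.273%). Between the C1 groups no feature was called (0 by edgeR, 140 at an unadjusted p under 0.05, 1 called by DESeq2, and 2 by edgeR without batch 3), which does not show that their levels were equal. The largest class of differences was features that fell with vorinostat and were not called with scriptaid: these 831 features held 128 of the 307 higher calls and 40 of the 82 differences of response.

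The count of calls depended on libraries outside and inside the comparison. Without scriptaid C4 replicate 3 the direct comparison gave 982 calls, which included all 470, and the difference of responses 335. Without all libraries of batch 1 or of batch 2 it gave 100 and 57, with 5 and 2 differences, and without batch 3, which holds that C4 library, 887 and 444. With that C4 library left out as well, the fits without batch 1 or batch 2 gave 497 and 404 direct calls and 128 and 82 differences. Thinned to the smallest total, which left 11111 features to test, the libraries gave 397 direct calls and 74 differences. The cause of these shifts was not tested.

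**Figure D1:**
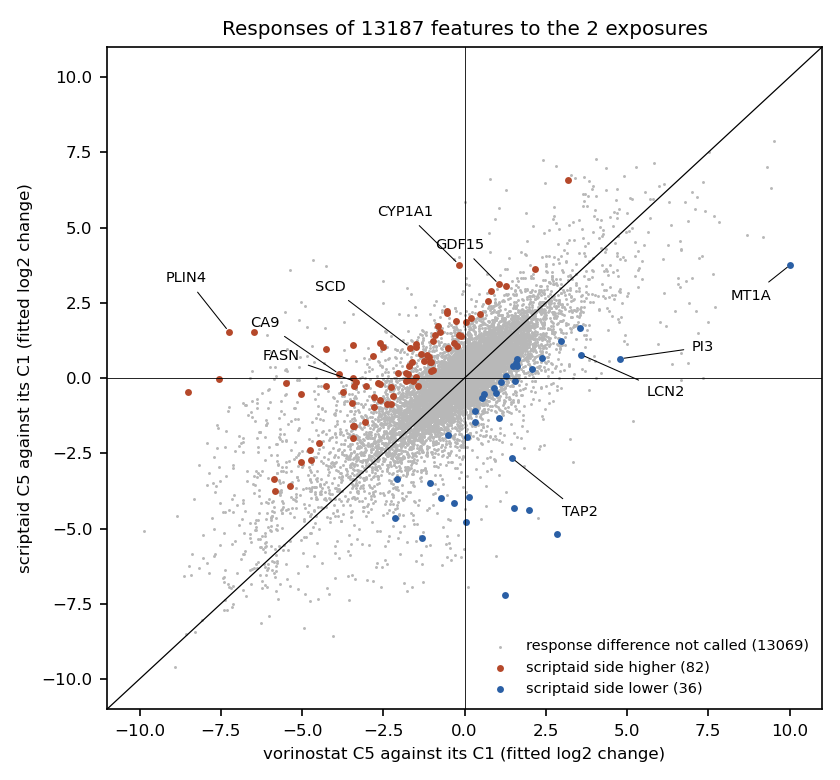
Fitted log2 change from C1 to C5 with vorinostat (x axis) and scriptaid (y axis) for the 13187 features tested, each point 1 feature and the diagonal line equal change. The 82 red and 36 blue points are those whose responses differed, and fitted changes of features at the floor, such as PLIN4 and MT1A, are drawn but are no measured fold.

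Targets of the aryl hydrocarbon receptor, a ligand-activated transcription factor that induces enzymes for flat aromatic compounds, were higher with scriptaid. Of 15 tested features of the list, 8 were called higher and 0 lower. Over all features 2.33% were called higher and 1.24% lower, the shares to set beside this list and those below. The median log2 difference was 2.58 with fitted values and 1.04 with floor features at their bound, against 0.01 over all features. CYP1A1, a cytochrome P450, is the usual readout of the receptor. The 250 bases before its RefSeq start (GRCh38.p14, minus strand, chr15:74725529-74725778) are shown with the receptor's core motif in capitals. GCGTG was searched on both strands, was found once, and occurs in 32.2% of the 35116 windows of this length before RefSeq starts and in 5 of 12 windows of this list (41.7%).
CYP1A1: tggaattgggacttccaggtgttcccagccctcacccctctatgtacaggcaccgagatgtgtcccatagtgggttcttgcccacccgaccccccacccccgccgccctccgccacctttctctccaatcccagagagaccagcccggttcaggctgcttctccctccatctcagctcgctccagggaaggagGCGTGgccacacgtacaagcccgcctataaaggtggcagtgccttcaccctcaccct
The probe CYP1A1_10775 read 437, 370 and 76.8 CPM in scriptaid C5 replicates 1, 2 and 3. It read 7.25, 15.4 and 17.4 CPM in vorinostat C5. The groups did not overlap, although the scriptaid library of batch 3 was far below the other two. The difference was 21.4-fold (log2 4.42, SE 0.62, 95% interval 3.16 to 5.67, edgeR adjusted p = 2.07e-05). With scriptaid the probe rose from its C1 by log2 3.77 and with vorinostat it moved by -0.17, which did not pass, and the responses differed by 3.94 (edgeR adjusted p = 0.012). The other probe, CYP1A1_1698, was also higher with scriptaid (log2 3.74, edgeR adjusted p = 0.0054), but it rose with both chemicals and its difference of responses was not called.

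CYP1A2, the sister enzyme of CYP1A1, read 53.5, 64.6 and 6.79 CPM with scriptaid on the probe CYP1A2_82402 and 0, 1.54 and 0 CPM with vorinostat, at least 20.2-fold higher with scriptaid (edgeR adjusted p = 1.06e-05). Its C1 levels were already apart at 20, 24 and 22 against 4.03, 4.2 and 0.644 CPM, although that difference was not called (edgeR adjusted p = 0.154). The other probe, CYP1A2_1699, held 10, 25 and 1 counts in scriptaid C5 and 0 in all 3 vorinostat C5 libraries. At C1 it held 15, 7 and 13 counts with scriptaid and 0, 0 and 2 with vorinostat, so its gap was there at C1 too. CYP1B1, a related hydroxylase, read 145, 149 and 26.1 against 18.1, 14.9 and 12.9 CPM (log2 2.82, SE 0.65). ALDH3A1, an aldehyde dehydrogenase, and the 2 probes of UGT1A6, a glucuronosyltransferase, fell from C1 with both chemicals. The UGT1A6 probes fell further with vorinostat. ALDH3A1 stood at 323, 342 and 49.1 against 19.9, 24.7 and 48.9 CPM, its nearest values almost touching. For ALDH3A1 the difference of responses was not called, and in batch 3 it fell more with scriptaid (log2 -3.12 against -1.93). Its C1 levels were also apart, at 442, 513 and 431 against 208, 257 and 188 CPM. The UGT1A6 responses differed by log2 2.38 and 2.32. Within batches 1, 2 and 3 the direct difference was 3.03, 2.75 and 1.23 for UGT1A6_91234. For UGT1A6_91513 it was 2.74, 2.94 and 0.40, so it was small in batch 3. Probes for related CYP1A and UGT1A genes may share reads, which could not be checked without the probe sequences.

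Not every member of the list was called. The receptor gene AHR differed by log2 0.07 (95% interval -0.67 to 0.81) and rose with both chemicals. TIPARP, another target, rose with both, by log2 2.43 with scriptaid and 1.61 with vorinostat, and its difference of 0.79 was not called (edgeR adjusted p = 0.0685). In the direct comparison the probes of AHRR, the receptor's repressor, were not called (log2 -1.93 and -0.44). Of NQO1, an oxidoreductase, the probe NQO1_26473 was not called (1.04). NQO1_4668 was not called either, and it lay at the floor in vorinostat C5 (0, 2 and 0 counts), so no fold is given. The summed level of the list lay between 707.668 and 2258.5 CPM in scriptaid C5 and between 593.53 and 669.179 CPM in vorinostat C5. At C1 it lay between 2178.54 and 2351.72 CPM with scriptaid and between 1775.81 and 1998.22 CPM with vorinostat. From C1 to C5, 5 features rose and 3 fell with scriptaid, and 4 rose and 5 fell with vorinostat. The responses differed for 3 features of the list. The higher C5 level is therefore not a rise of the whole list from C1. Without batch 1 and without batch 2 the calls in this list were 5 and 3.

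Genes of cholesterol synthesis were also higher with scriptaid. Of 25 tested features, 12 were called higher with scriptaid and 0 lower, 23 had a positive difference, and the median log2 difference was 1.38. From C1 to C5 the contrast lay on the vorinostat side: 17 features fell with vorinostat and 0 rose (median -1.38). With scriptaid 3 rose and 6 fell (median -0.02). The list's summed level was 6440.56 to 7315.08 CPM in scriptaid C5 and 2543.53 to 2719.89 CPM in vorinostat C5, after 7762.43 to 8815.71 CPM over the 6 C1 libraries. INSIG1, which retains the sterol sensor of the pathway in the endoplasmic reticulum, carries a CCAAT box, bound by NF-Y, in the 250 bases before its start (GRCh38.p14, plus strand, chr7:155297628-155297877). The capitals mark it, on the other strand.
INSIG1: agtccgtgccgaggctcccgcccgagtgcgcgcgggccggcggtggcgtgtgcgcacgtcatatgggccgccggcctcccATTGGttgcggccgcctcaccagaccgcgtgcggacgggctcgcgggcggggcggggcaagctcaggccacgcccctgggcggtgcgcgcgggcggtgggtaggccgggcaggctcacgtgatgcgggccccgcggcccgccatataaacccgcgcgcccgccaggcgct
CCAAT was found on either strand in 15 of 20 windows of the list's genes with a RefSeq entry (75%), against 32.0% of all windows, and the sterol response element TCACNCCAC in 1 of the 20, against 0.883%. A match is a description of the letters. INSIG1 read 488, 444 and 358 CPM with scriptaid and 89.7, 79.2 and 92.7 CPM with vorinostat. The groups lay far apart, 4.94-fold (log2 2.30, SE 0.27, edgeR adjusted p = 1.67e-06). From C1 to C5 the probe fell by 2.06 on the log2 scale with vorinostat and moved by 0.18 with scriptaid, which did not pass. The responses differed by 2.24. With scriptaid it averaged 299, 208 and 287 CPM in C2, C3 and C4, below the 379 CPM of its C1.

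IDI1, an isomerase of the isoprenoid steps, read 1151, 1053 and 706 CPM with scriptaid against 293, 279 and 250 CPM with vorinostat (log2 1.82, SE 0.21). From C1 to C5 it rose with scriptaid and fell with vorinostat. DHCR7, which catalyses the last step to cholesterol, read 1730, 1789 and 1961 against 612, 679 and 567 CPM on the probe DHCR7_90281 (log2 1.56, SE 0.16). The groups overlapped for neither gene. MSMO1 and HMGCS1, enzymes of the sterol and mevalonate steps, fell with both chemicals, with direct differences of log2 1.38 and 1.66. Between responses MSMO1 differed by log2 1.52. SREBF2, which codes for the pathway's main transcription factor, did not pass (log2 0.48, 95% interval -0.35 to 1.31), and nor did SQLE (1.03), STARD4 (0.85) or any of the 3 probes of CYP51A1. Without batch 1 and without batch 2 the calls in this list were 5 and 4.

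Lipogenesis and lipid droplet genes differed the same way. Of 18 tested features 9 were called higher with scriptaid and 0 lower, with a median log2 difference of 1.33. From C1, 8 fell and 2 rose with vorinostat, and 3 fell and 4 rose with scriptaid. FASN, the fatty acid synthase, read 548, 366 and 190 CPM with scriptaid and 37.2, 50.9 and 29.6 CPM with vorinostat, after 352 to 439 CPM in the 6 C1 libraries. The scriptaid libraries bracketed the C1 level while every vorinostat library was far below it. The direct difference was 9.32-fold (log2 3.22, SE 0.27, edgeR adjusted p = 2.77e-09) and the difference of responses log2 3.21 (edgeR adjusted p = 2.38e-06).

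SCD, the desaturase that makes monounsaturated fatty acids, moved in opposite directions. The 250 bases before its start (GRCh38.p14, plus strand, chr10:100346983-100347232) hold CCAAT at 2 places, in capitals.
SCD: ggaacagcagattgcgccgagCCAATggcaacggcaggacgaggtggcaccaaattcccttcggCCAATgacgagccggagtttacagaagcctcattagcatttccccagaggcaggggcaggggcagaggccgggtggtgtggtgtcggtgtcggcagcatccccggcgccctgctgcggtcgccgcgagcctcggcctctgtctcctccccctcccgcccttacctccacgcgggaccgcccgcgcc
SCD read 1014, 841 and 982 CPM in scriptaid C5, up from 406, 398 and 605 CPM at C1 (log2 1.01, edgeR adjusted p = 0.000293). It read 148, 157 and 187 CPM in vorinostat C5, down from 447, 532 and 579 CPM (log2 -1.66, edgeR adjusted p = 2.64e-07). The responses differed by log2 2.67 and the C5 groups by 2.53. PLIN2, a coat protein of lipid droplets, rose with scriptaid to 178, 154 and 148 CPM and stayed at 35.3, 30.8 and 57.3 CPM with vorinostat, a response difference of log2 1.78 (edgeR adjusted p = 0.0109). PLIN4, another coat protein, was at 46.7, 46.7 and 4.7 CPM with scriptaid and at 0 in all 3 vorinostat libraries, at least 15.8-fold lower. FABP4, a fatty acid carrier, rose with both, to 307, 212 and 120 CPM with scriptaid and 62.5, 67.3 and 62.5 CPM with vorinostat.

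Other members were less clear. ACLY, which supplies cytosolic acetyl-CoA, differed by log2 1.51 (SE 0.33). The 4 probes of ACACA, the acetyl-CoA carboxylase, gave 1.22 and 1.19, which were called, and 1.04 and 0.36, which were not. CIDEC, a lipid droplet protein, fell with both chemicals to 16.9 and 11.0 CPM on average and its direct difference was not called (log2 0.66, 95% interval -0.12 to 1.43). Without batch 1 and without batch 2 this list had 4 calls each.

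**Figure D2:**
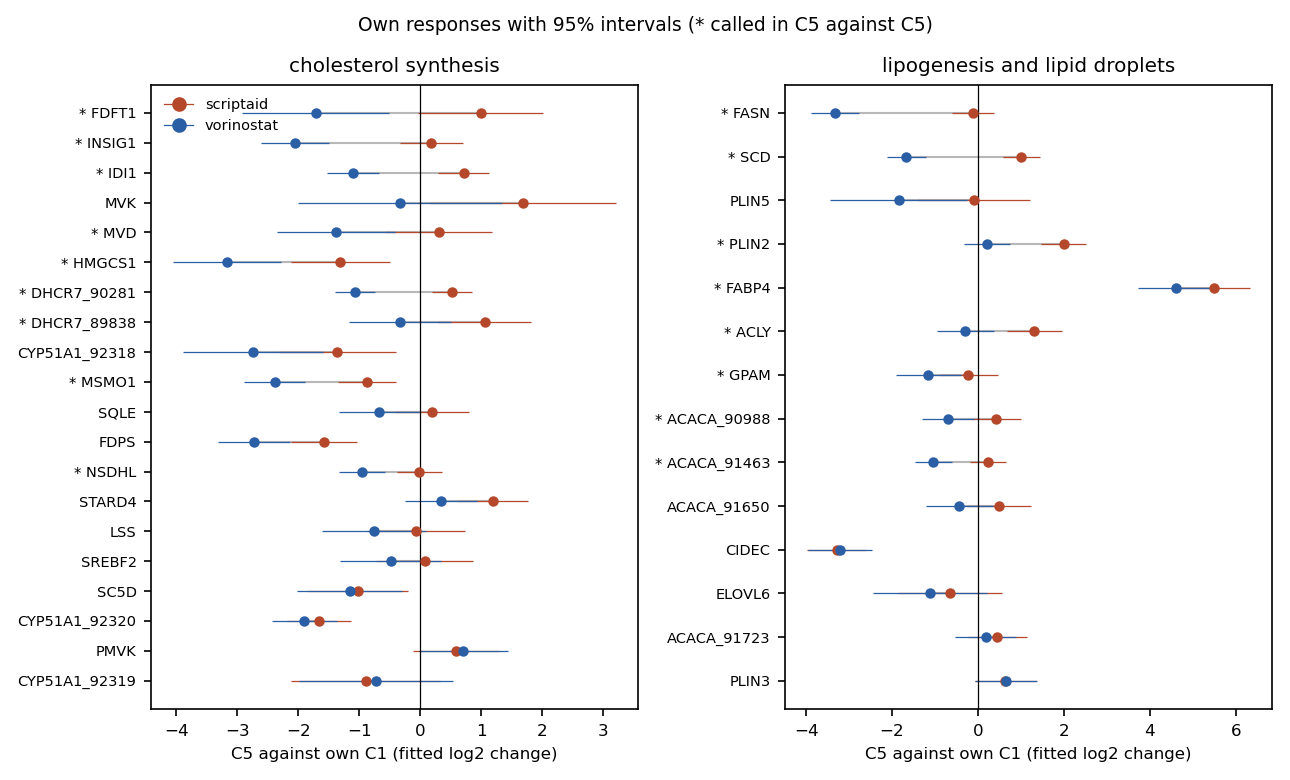
Fitted log2 change from C1 to C5 (x axis) with its 95% interval for 20 of 25 cholesterol synthesis features and 14 of 18 lipogenesis and lipid droplet features, scriptaid in red and vorinostat in blue; features at the floor in any of the 4 groups, and 3 not reported here, are left out. Most blue points lie left of the red ones, FASN furthest, while CIDEC, FABP4 and PMVK moved in the same direction with both chemicals, though not by equal amounts.

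The glycolysis and hypoxia list had 6 of 21 tested features called higher with scriptaid and 0 lower (median log2 difference 0.78). CA9, the carbonic anhydrase used as a marker of the hypoxia response, holds the core of the hypoxia response element, ACGTG, on the other strand of the 250 bases before its start (GRCh38.p14, plus strand, chr9:35673678-35673927). It is in capitals. ACGTG occurs in 18.5% of all windows and in 13 of 21 windows of this list (61.9%).
CA9: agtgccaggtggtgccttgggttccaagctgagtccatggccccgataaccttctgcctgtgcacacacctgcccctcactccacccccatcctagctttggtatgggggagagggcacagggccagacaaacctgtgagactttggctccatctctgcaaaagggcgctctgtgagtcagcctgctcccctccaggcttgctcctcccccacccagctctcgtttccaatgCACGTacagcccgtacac
CA9 read 28.8, 21.2 and 58.5 CPM in scriptaid C5 and 1.81, 0 and 2.58 CPM in vorinostat C5, from 29.5 to 35.8 and 16.1 to 24.4 CPM at C1. From C1 to C5 it fell with vorinostat by 3.85 on the log2 scale and moved by 0.13 with scriptaid, which did not pass. The responses differed by log2 3.98 (edgeR adjusted p = 0.0171). Between those concentrations its scriptaid average was lower, at 14.2, 9.51 and 9.18 CPM in C2, C3 and C4. LDHA, lactate dehydrogenase, rose with scriptaid to 618, 697 and 1360 CPM while vorinostat libraries held 243, 250 and 243 CPM (log2 1.86, SE 0.29). PGK1 and ALDOA, glycolytic enzymes, were higher with scriptaid by log2 1.59 and 1.32. PFKFB3 and PFKFB4, which set the level of a glycolytic activator, differed by 1.79 and 2.91, but their highest values, 150 and 48 CPM, came from scriptaid C5 replicate 3. Without that library neither was called, and the lowest differences over all alternatives were 0.89 and 1.46. In batch 3 the scriptaid library was the highest of its group for these 6 genes and the lowest for the aryl hydrocarbon receptor targets described above. Neither ENO1, SLC2A1 nor VEGFA was called, and nor were EGLN3, ADM, NDRG1, ANKRD37 or PDK1, also of this list. Within batches 1, 2 and 3 the direct differences of EGLN3_88861 were log2 -0.20, 0.03 and 0.28, and those of EGLN3_90114 0.08, -0.01 and 0.39. Most of the list was thus not called, and the calls do not speak for hypoxia targets as a whole.

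Metallothioneins, small proteins that bind zinc and copper, went the other way. The list of metallothioneins and zinc response had 7 tested features, of which 3 were called lower with scriptaid and 0 higher (median log2 difference -1.16). Of the list, 6 features rose with scriptaid (median 1.66) and all 7 with vorinostat (median 3.26). It includes MTF1, the metal-responsive transcription factor, and SLC30A1, a zinc exporter, whose direct differences of log2 -0.05 and -0.21 were not called, and the 3 calls were metallothioneins. MT2A holds metal response element matches (TGCNCNC, 5 on its strand and 2 on the other, in capitals) in the 250 bases before its start (GRCh38.p14, plus strand, chr16:56608334-56608583). The motif occurs in 49.1% of all windows, and 3 bases in capitals also belong to a match of another motif searched.
MT2A: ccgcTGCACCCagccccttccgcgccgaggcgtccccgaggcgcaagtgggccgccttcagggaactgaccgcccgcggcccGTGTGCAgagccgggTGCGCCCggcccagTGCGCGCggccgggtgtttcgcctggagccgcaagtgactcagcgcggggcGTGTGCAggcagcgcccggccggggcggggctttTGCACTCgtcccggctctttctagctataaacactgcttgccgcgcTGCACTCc
MT2A read 1011, 1246 and 682 CPM with scriptaid and 2148, 2271 and 2163 CPM with vorinostat, from 69.3 to 166 CPM at C1. The difference of log2 -1.16 was at the edge of the threshold (edgeR adjusted p = 0.0495) and was lost in 15 alternatives. MT1M read 103, 97.4 and 38.1 against 208, 208 and 275 CPM (log2 -1.53, edgeR adjusted p = 0.002), and MT1E 97, 102 and 133 against 188, 242 and 276 CPM (log2 -1.09, edgeR adjusted p = 0.0299). MT1X (-1.43) and MT1A (-1.40) did not pass. These genes are near-identical, and their probes may share reads. Without batch 1 and without batch 2 the list had 1 and 0 calls.

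**Figure D3:**
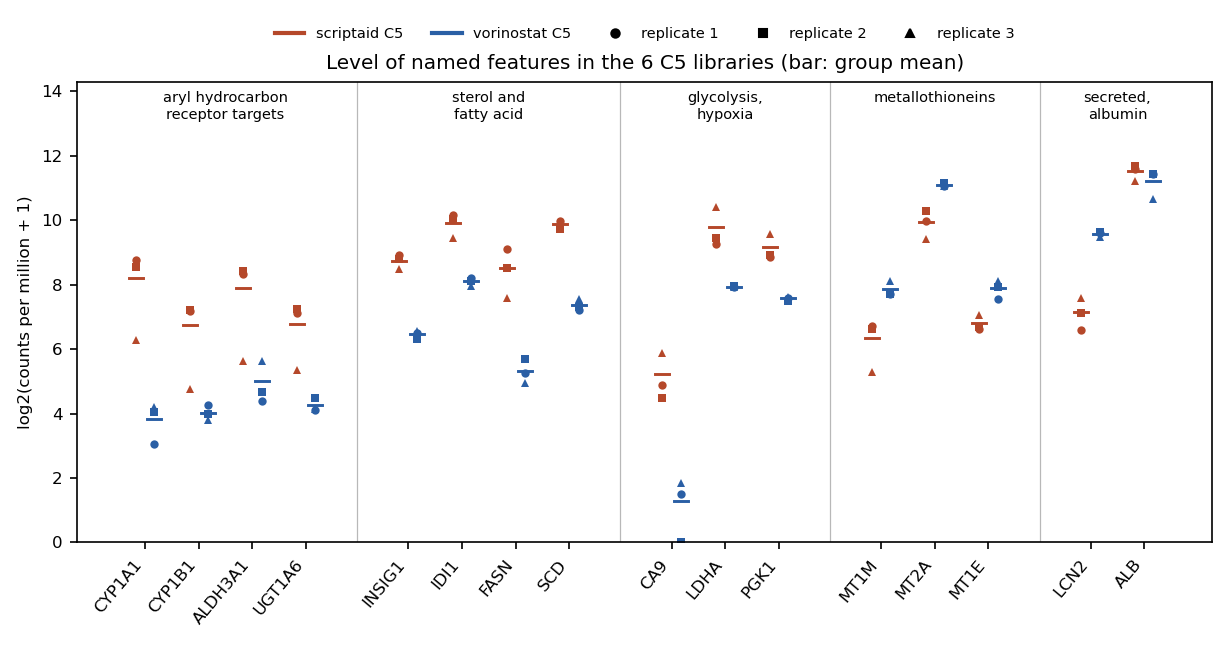
Level of 16 features, as log2(CPM + 1), in the 3 scriptaid C5 (red) and 3 vorinostat C5 (blue) libraries, with a symbol for each replicate and a bar at the group mean. Groups do not overlap for any feature except ALB, and the triangle of scriptaid replicate 3 is lowest for the aryl hydrocarbon receptor targets and highest for CA9, LDHA and PGK1.

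LCN2 and PI3 were also lower with scriptaid. LCN2, lipocalin 2, a secreted iron-siderophore binding protein of the acute-phase response, read 94.7, 137 and 190 CPM in scriptaid C5 and 770, 802 and 710 CPM in vorinostat C5, from 52.5 to 107 CPM at C1. Its fitted change was log2 0.78 with scriptaid and 3.58 with vorinostat, and the responses differed by -2.80 (edgeR adjusted p = 0.000167). Within batches 1, 2 and 3 the scriptaid change was -0.17, 0.99 and 1.42, so it did not rise in batch 1. It was the only call among the 18 tested features of chemokines and acute inflammation. PI3, an elastase inhibitor of epithelia, read 4.58, 5.46 and 5.74 against 37.2, 28.8 and 45.1 CPM, and the responses differed by log2 -4.15 (edgeR adjusted p = 0.0361).

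The p53 and xenobiotic receptor lists each held 4 calls, all higher with scriptaid. GDF15, a cytokine of cell stress that p53 also induces, rose with both chemicals and more with scriptaid. The probe GDF15_18329 read 1053, 1164 and 599 CPM against 271, 267 and 176 CPM, and the responses differed by log2 2.08 (edgeR adjusted p = 0.00518), while the other probe gave 2.05. The death receptor TNFRSF10B differed on both probes (log2 1.38 and 1.03), and these 4 features were the only calls among 29 of the p53 list, whose median difference was 0.06. ALAS1, the rate-limiting enzyme of heme synthesis, read 522, 678 and 683 against 197, 179 and 153 CPM (log2 1.83, SE 0.19, edgeR adjusted p = 1.46e-07). It was 1 of 4 calls among 19 targets of the constitutive androstane and pregnane X receptors, beside POR (1.03), the electron donor of cytochromes P450, and 2 probes of UGT1A1 (2.40 and 1.98), which conjugates bilirubin. From C1 to C5 most of this list fell. With scriptaid 12 of the 19 features fell and 3 rose, and with vorinostat 13 fell and 0 rose. The median log2 changes, with floor features at their bound, were -2.83 and -2.00.

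**Figure D4:**
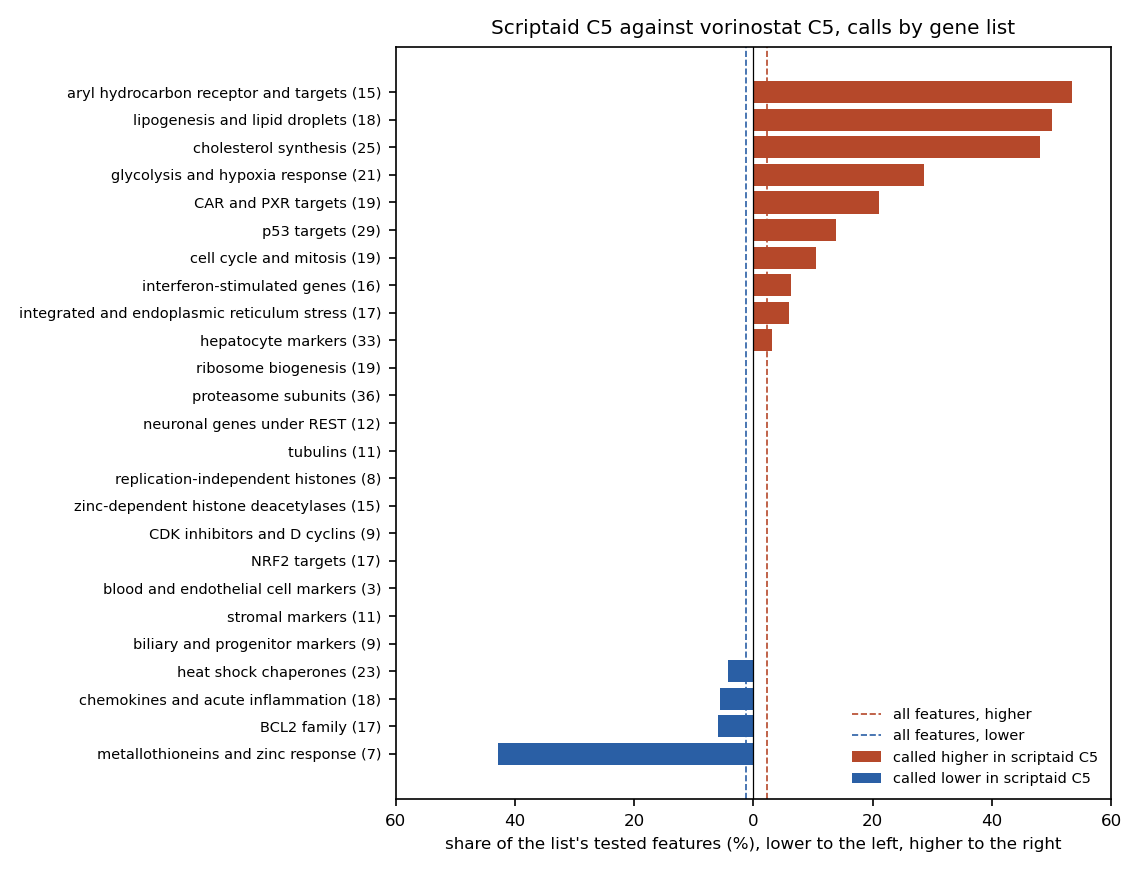
Share of each list's tested features (number in brackets) called higher (red, right) or lower (blue, left) in scriptaid C5 than in vorinostat C5, with dashed lines at the shares over all features, 2.33% and 1.24%. The aryl hydrocarbon receptor, lipogenesis and cholesterol lists reach furthest right and the metallothionein and zinc response list furthest left; 11 lists have no call, and the globin list, with 1 tested feature and no call, is not drawn.

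Of the 9 features whose responses were opposite and differed, 6 rose with scriptaid and fell with vorinostat. They were IDI1, SCD and TMEM135, and 3 more: GINS2, a subunit of the replicative helicase complex (42.1, 47.3 and 31.9 against 4.53, 7.2 and 14.2 CPM, response difference log2 2.64), CREB3L3, a liver transcription factor of fasting metabolism (91.5, 90.7 and 48 against 19, 11.3 and 9.02 CPM, 2.53), and MMS22L, a factor of replication fork repair (81, 97.7 and 125 against 28.1, 26.2 and 35.4 CPM, 2.14). The reverse held for 3 features. TAP2, the peptide transporter of antigen presentation, read 1.83, 1.82 and 1.57 against 10.9, 11.3 and 25.8 CPM (response difference log2 -4.11, and -1.22 with probes summed per gene). S100A4, a calcium-binding protein, read 4.12, 3.94 and 10.4 against 13.6, 19.5 and 25.1 CPM (-2.38). OR7C1, an olfactory receptor, was at 0 in scriptaid C5 and at 3.62, 4.63 and 3.86 CPM with vorinostat.

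Among the other features that stood furthest apart, TK1, the thymidine kinase of S phase, read 11.9, 7.28 and 11 CPM with scriptaid and 0 in all 3 vorinostat libraries, at least 4.87-fold higher (edgeR adjusted p = 0.000261). TMEM74B and PHACTR1 were at least 4.9-fold and 5.14-fold higher with scriptaid, and LGSN, at 29.3, 26.7 and 3.66 against 1.81, 2.06 and 0 CPM, differed by log2 3.90. On the lower side, CYP4X1, a cytochrome P450, read 0, 0.607 and 2.61 against 12.7, 9.77 and 10.3 CPM (log2 -3.41, edgeR adjusted p = 0.00139). MYL12A, a myosin light chain whose sequence is close to that of MYL12B, was at least 9.35-fold higher with vorinostat. FAM231B (-2.32), HIF3A (-2.37) and RPLP0_92411 (-2.27) completed the lower set; the last 2 lay at edgeR adjusted p of 0.0499 and 0.0486 and were lost in 19 and 21 alternatives.

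The shared changes were compared by the interval of the direct difference. Of 3145 shared features above the floor in both C5 groups, 1480 (47.1%) had a 95% interval of the direct difference within 2-fold, against 4320 of 12175 over all features (35.5%), and 255 had it within 1.5-fold. The shared features were chosen by calls that used the same C5 libraries and favour narrow intervals, so these shares are descriptive only. Hepatocyte markers fell with both chemicals, 31 of 33 features with scriptaid and 30 with vorinostat, with a median direct log2 difference of 0.00. Only 3 of the 33 had a direct interval within 2-fold. Several lay at or near the floor in both C5 groups, so the median does not show equal levels. ALB, albumin, read 3103, 3283 and 2401 against 2773, 2795 and 1619 CPM, from 16607 to 23316 CPM at C1. The groups overlapped, and the difference of log2 0.29 had a 95% interval of -0.33 to 0.91. The only direct call in the list was APOB, the protein of very low-density lipoprotein, at 418, 307 and 127 against 115, 84.8 and 47.7 CPM (log2 1.79, and 1.80 between responses). IGF1, CYP8B1, GYS2 and UGT1A4, which serve growth signalling, bile acid synthesis, glycogen synthesis and glucuronidation, were at 0 counts in both C5 groups. IGF1 was then at least 13.5-fold lower than at C1 with scriptaid and at least 8.72-fold lower with vorinostat, and between the chemicals no fold can be given.

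ROS1, GBP3, SERPINF2 and HBG1 were chosen after their values were seen, as large shared changes above the floor. ROS1, a receptor tyrosine kinase, stood at 5.49, 8.8 and 17.2 against 11.8, 7.71 and 11.6 CPM (log2 0.02, 95% interval -0.82 to 0.85) after falling by 4.68 and 4.94 on the log2 scale. GBP3, a guanylate-binding protein, and SERPINF2, the plasmin inhibitor, differed by -0.12 and -0.18. HBG1, a fetal globin gene, rose by log2 4.71 with each chemical to 30.7, 34.6 and 53.3 against 32.6, 34.9 and 56 CPM (95% interval of the difference -0.92 to 0.79). Its probe may share reads with the near-identical HBG2.

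The histone deacetylase genes themselves gave no call among 15 features, and nor did proteasome subunits (36 features, 4 rising with scriptaid and 13 with vorinostat), NRF2 targets (17), neuronal genes under the repressor REST (12, with 7 rising under each), ribosome biogenesis (19), tubulins (11), replication-independent histones (8), CDK inhibitors and D cyclins (9), or the biliary, stromal, and blood and endothelial marker lists. Over all features 16.0% rose and 20.1% fell with scriptaid, and 17.2% rose and 21.3% fell with vorinostat. With 3.56% of all features called between the C5 groups, lists of this size can hold no call without differing from the rest. H1F0, a linker histone, rose with both (log2 1.90 and 1.35) and its difference of 0.69 had a 95% interval of -0.19 to 1.57. Cell cycle genes fell, 12 of 19 with scriptaid and 13 with vorinostat, and CDK1 (84.5 against 32.4 CPM on average, log2 1.35) and MCM5 (1.49) were higher with scriptaid. Lists with 1 call were heat shock chaperones (HSPB1, log2 -0.60), the BCL2 family (MCL1, -0.76), interferon-stimulated genes (IFI27, 1.61) and the stress list (XBP1_7759, at least 1.11-fold higher).

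Levels over the 5 concentrations are given side by side without a test, as the doses differ. CYP1A1_10775 averaged 21.5, 62.6, 868, 2985 and 294 CPM from scriptaid C1 to C5, and 15.9, 18.4, 102, 61.9 and 13.4 CPM from vorinostat C1 to C5. The C4 libraries of scriptaid (60 µM) read 1968, 1599 and 5387 CPM, the last being replicate 3, which stood apart, and each of the 3 was above every C5 library. FABP4 averaged 4.68, 14.8, 49.5, 74.5 and 213 CPM with scriptaid and 2.73, 2.91, 11.6, 35.1 and 64.1 CPM with vorinostat. LCN2 averaged 82.0, 80.4, 92.1, 127 and 141 CPM with scriptaid and 63.5, 76.6, 79.4, 215 and 761 CPM with vorinostat. Near concentrations occur at 2 places. At scriptaid C1 (4.94 µM) and vorinostat C3 (3.643 µM), CYP1A1_10775 averaged 21.5 and 102 CPM and MSMO1 2742 and 1831 CPM. At scriptaid C2 (14.82 µM) and vorinostat C4 (10.929 µM), they averaged 62.6 and 61.9 CPM and 2321 and 842 CPM.

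**Figure D5:**
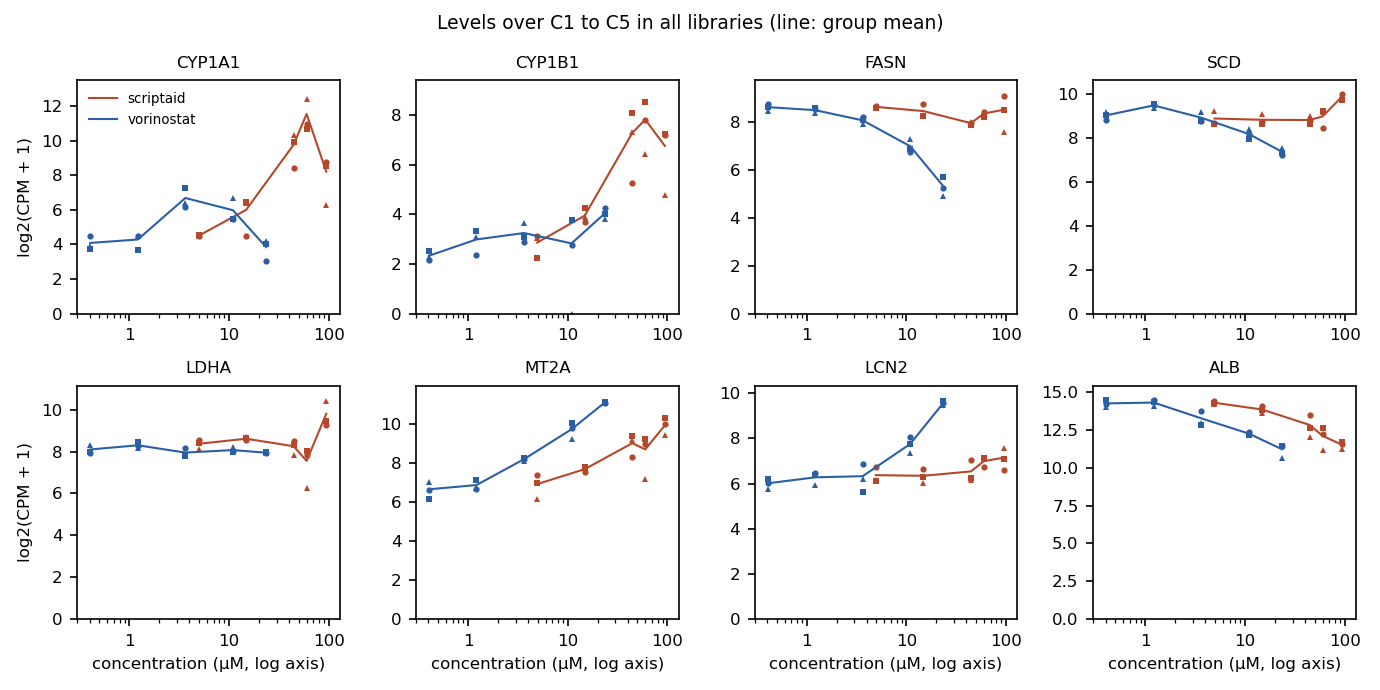
Level of 8 genes, as log2(CPM + 1), against concentration (µM, log axis) for scriptaid (red) and vorinostat (blue), with a symbol for each library and lines through the group means. CYP1A1 peaks before the highest concentration of each chemical, ALB declines with both, and LCN2 and MT2A climb further with vorinostat; the low triangles of LDHA and MT2A at 60 µM are scriptaid C4 replicate 3.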

How the data were processed

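The authors deposited a table of raw read counts per TempO-Seq probe for 118 libraries of HepaRG cells. The submitters' processing notes name bcl2fastq 2.20.422, fastp 0.23.2, STAR 2.7.10b and DESeq2 1.38.0; the genome build and probe annotation are not given in the sources used here. Of 22069 rows, 1 lacked a value in 88 libraries and was left out.

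Counts of the 30 scriptaid and vorinostat libraries were filtered by edgeR's default (13187 of 22068 features tested), scaled by TMM and fitted with a quasi-likelihood model of the 10 groups (R 4.3.3, edgeR 4.0.16, limma 3.58.1), with Benjamini-Hochberg adjustment over all features tested. Calls needed an adjusted p under 0.05 and a fold of at least 1.5. The code was tested on simulated data. Alternatives covered scaling, filter, fold threshold, libraries fitted, depth, probes summed per gene, DESeq2 1.42.0 and left-out libraries.

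Named features were, by rule, the 8 with the largest called direct change in each direction (same sign in 3 batches, at least 10 CPM in the higher group), the 4 largest opposite responses per class, up to 3 per list, the 4 largest shared changes, and set genes. ROS1, GBP3, SERPINF2, HBG1 and TMEM135 were chosen after their values were seen. Members and the 26 lists were chosen with earlier results of these data known. Promoter windows came from RefSeq GRCh38.p14, where several genes had no entry. Some members of the lists count in their totals but are not reported here by name.

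Replicate numbers mark shared HepaRG batches in the labels, so they pair the samples. Deviations from group means correlated with a median of 0.0303 over 135 same-batch pairs and -0.0144 over 270 others. For the C5 groups the pair values were 0.0239, -0.00136 and 0.0389. With 3 libraries a group, intervals cover this spread only.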

Additional observations from a re-analysis of the deposited data

Results flagged for a closer look

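The responses to scriptaid and vorinostat, each C5 less C1, differed by the interaction test of edgeR for the following named features, given as log2 differences with positive values where the scriptaid side was higher. Among sterol genes these were INSIG1 (2.24), IDI1 (1.82), DHCR7_90281 (1.59) and MSMO1 (1.52). Among lipid genes they were FASN (3.21), SCD (2.67), PLIN2 (1.78), and ACACA_91463 (1.27). Among targets of the aryl hydrocarbon receptor they were CYP1A1_10775 (3.94) and the UGT1A6 probes (2.38 and 2.32).

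The hypoxia and glycolysis genes CA9 and LDHA differed by 3.98 and 1.59, the GDF15 probes by 2.05 and 2.08, TNFRSF10B_23818 by 1.24, ALAS1 by 1.66 and APOB by 1.80. GINS2 (2.64), CREB3L3 (2.53) and MMS22L (2.14) were also higher on the scriptaid side. The lower side held PI3 (-4.15), TAP2 (-4.11), CYP4X1 (-3.25), LCN2 (-2.80) and S100A4 (-2.38).

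Where a group lay at the floor no fold of the response can be given. The edgeR adjusted p of the difference was 0.00916 for TK1, 0.00916 for TMEM74B, 0.0131 for PLIN4, 0.0266 for MT1A and 0.0368 for OR7C1. Single values in groups of 3 libraries were not tested for outliers.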

How the results depend on the processing

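The 470 direct calls became 879 with the 12 libraries of C1 and C5 alone and 982 without scriptaid C4 replicate 3. The 118 differences of response became 198 with DESeq2, 201 with no filter on low counts, 314 with those 12 libraries, 231 with all 118 libraries, 74 with libraries thinned to the smallest total and 335 without scriptaid C4 replicate 3. Without that library the scriptaid response had 5532 calls and the vorinostat response 5808. The C1 groups, with 0 calls, gave 1 with DESeq2, 1 with no filter and 1 without scriptaid C4 replicate 3. Leaving out replicates gave 57 to 887 direct calls, 2 to 444 differences, 0 to 2 calls between the C1 groups, 2798 to 4799 for scriptaid and 2968 to 5185 for vorinostat. With the replicate block, which uses the pairing by HepaRG batch, the counts were 547, 138, 0, 4870 and 5165 in the same order. Without batch 1 or 2 and without scriptaid C4 replicate 3 the direct calls were 497 and 404 and the differences 128 and 82. The fits without that library were chosen after seeing the data. The cause of these shifts was not tested.

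No called value of the 222 named results changed sign. Of 70 direct calls on named features 16 passed in every alternative, including FASN, SCD, INSIG1, IDI1, CYP1A1_10775, CA9, LDHA and LCN2, and of 33 differences 2 did, FASN and SCD. Of 119 values not called, 29 were called in some alternative. The shallower vorinostat C5 libraries limit what can be measured there: 825 tested features lay at the floor in them, against 422 in scriptaid C5.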
